A study of Mus musculus with 21 samples.

Results

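The mitochondrial ribosomal protein genes were taken as every gene whose symbol is Mrpl or Mrps followed by a number and at most 1 letter. The rule found 78 of the 54532 genes listed, 49 named Mrpl and 29 named Mrps, and the same 78 stood in both deposited tables. RNA sequencing of primary mouse brain microglia gave 21 libraries in 7 groups of 3. The aging set held microglia from aged mice labelled Trem1-/-, aged wild type mice, young mice labelled Trem1-/- and young wild type mice. The deposited descriptions conflict here, since the design text of the study speaks of TREM1+/- microglia, and which of the genotypes the aging libraries carry was not resolved. The 5XFAD set held adult mice of 3 genotypes, namely 5XFAD mice with a Trem1+/- label (5XFADXTREM1+/-), 5XFAD mice and wild type mice. 5XFAD mice are a transgenic model of Alzheimer's disease, with transgenes driven by a neuronal promoter, and develop amyloid plaques. Trem1 encodes a receptor of myeloid cells that amplifies inflammatory signals, and the comparisons ask how microglial RNA differs with age, with 5XFAD and with the Trem1 genotype. The labels gave no age in months, no way of isolating the cells and no statement that libraries came from separate animals, so p-values here reflect no more than how these samples scatter, which may be technical.

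The mitochondrial ribosome translates the mRNAs of the mitochondrial genome, all of which encode inner-membrane subunits of the respiratory chain and ATP synthase. Its 12S and 16S rRNAs are transcribed inside the organelle, while its proteins are encoded in the nucleus, made in the cytosol and imported. It descends from a bacterial ribosome and has gained many proteins with no bacterial counterpart. A symbol does not always give the place of a protein. In structures of mammalian mitochondrial ribosomes the proteins of Mrps18a and Mrps30 sit in the large subunit, and Mrps36 is now known as a subunit of the 2-oxoglutarate dehydrogenase complex. With those placements the set held 51 large-subunit genes, 26 small-subunit genes and Mrps36.

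Depth per library was 8600878 to 19411434 reads assigned to genes for aging and 9264999 to 18698707 for 5XFAD. Values below are normalized counts, the authors' read counts divided by a size factor per library, and the tables were normalized separately. Trem1 itself had 124, 124 and 244 normalized counts in libraries labelled aged Trem1-/- and 269, 188 and 237 in aged wild type libraries (-0.55 ± 0.45, limma adjusted p = 0.743). It had 89.4, 99.8 and 89.5 in libraries labelled young Trem1-/-, against 25.2, 7.65 and 8.74 in young wild type libraries, and so was higher under the knockout label (2.85 ± 0.45, limma adjusted p = 0.000622). The labels do not say which exons were deleted, so reads of Trem1 neither bear out nor contradict a knockout by themselves, and every direction drawn from these groups is one between libraries with those labels. Trem1 had 25.1, 18.1 and 38.3 in 5XFAD Trem1+/-, 13.7, 32.0 and 36.8 in 5XFAD and 62.7, 0 and 30.2 in adult wild type libraries. Microglial markers were present in every library, with sums over 8 genes of 282377 to 445201. Neutrophil markers, 12 genes, summed to 59169 to 148946 in libraries labelled aged Trem1-/-, 72852 to 140183 in aged wild type, 28712 to 68808 in libraries labelled young Trem1-/- and 9057 to 16530.2 in young wild type libraries. No marker of either list was at 0 in all libraries of a group.

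Of the 78 genes, 77 had a mean normalized count of at least 10 in each set and were tested. The exception was Mrpl53 (GRCm38 chr6:83109040-83109939, plus strand), at 0 in all 21 libraries. Of its 790 annotated exon bases, 710 are shared with Gm42688 on the same strand or Ccdc142os on the opposite strand. Exons of 33 members overlap those of another gene, and the sources used here do not say whether counting used strand, so their values are uncertain. Among the genes named below these are Mrpl9, Mrpl10, Mrpl12, Mrpl14, Mrpl18, Mrpl19, Mrpl24, Mrpl33, Mrpl44, Mrpl47, Mrpl48, Mrpl58, Mrps11, Mrps18b, Mrps18c, Mrps24 and Mrps30. Mrpl46 and Mrps11, for example, share 173 exon bases on opposite strands of chromosome 7.

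Levels per 1000 transcript bases spanned a wide range. In the aging set the 77 genes ran from 32.7 to 1301 normalized counts per 1000 bases, with a median of 126. In the 5XFAD set they ran from 35.3 to 1187, with a median of 146. Mrpl52, a large-subunit protein with no bacterial counterpart, had the highest mean in both sets. Next in the aging set came Mrps15 at 717, Mrps21 at 517, Mrpl33 at 466 and Mrpl42 at 349.8 normalized counts per 1000 bases. Next in the 5XFAD set came Mrps15 at 718, Mrpl33 at 547, Mrps21 at 529 and Mrpl18 at 342. Neighbours in this order overlapped over libraries: in the aging set Mrps21 ran from 359.8 to 926 and Mrpl33 from 247 to 703. The lowest tested genes were Mrpl19, Mrpl47, Mrps17, Mrps16 and Mrpl11 in the aging set, at 32.7 to 41.6 per 1000 bases. In the 5XFAD set they were Mrpl19, Mrpl47, Mrps16, Mrpl48 and Mrpl17, at 35.3 to 48.7. Their annotated transcripts are long, 2572 bases for Mrps16 and 5000 for Mrpl19, so their place depends on the transcript chosen. The place of the highest genes depends on it too. The transcript used held 418 of 1109 annotated exon bases for Mrpl52, 478 of 7326 for Mrpl33 and 666 of 3682 for Mrpl42.

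Members with a known task were spread over this range, on the same scale of normalized counts per 1000 bases. The factor-binding stalk, which recruits translation factors, is built from copies of Mrpl12 on a base of Mrpl10 and Mrpl11. Mrpl12 had 273 in the aging set and 276 in the 5XFAD set, Mrpl10 had 158 and 146, and Mrpl11 had 41.6 and 50.5. Mrpl58, a peptidyl-tRNA hydrolase that rescues stalled ribosomes, had 99.3 in the aging set and 105 in the 5XFAD set. Mrpl45, which contacts the inner membrane near the peptide exit, had 108 in the aging set and 106 in the 5XFAD set. Of the other large-subunit proteins, Mrpl44, with a fold like that of ribonuclease III, had 137 in the aging set and 96.7 in the 5XFAD set, and Mrpl41 had 164 in the aging set and 181 in the 5XFAD set. Mrps12, beside the decoding centre, had 113 in the aging set and 104 in the 5XFAD set. Of the 3 relatives of bacterial S18, Mrps18a had 311 in the aging set and 271 in the 5XFAD set, Mrps18b 92.0 and 94.4, and Mrps18c 63.6 and 98.5. The order of levels was much alike in all groups: Spearman's rho between group means over 77 genes was 0.838 to 0.950 over 9 pairs of groups within a table, a description over genes that share libraries and transcript lengths.

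**Figure D1:**
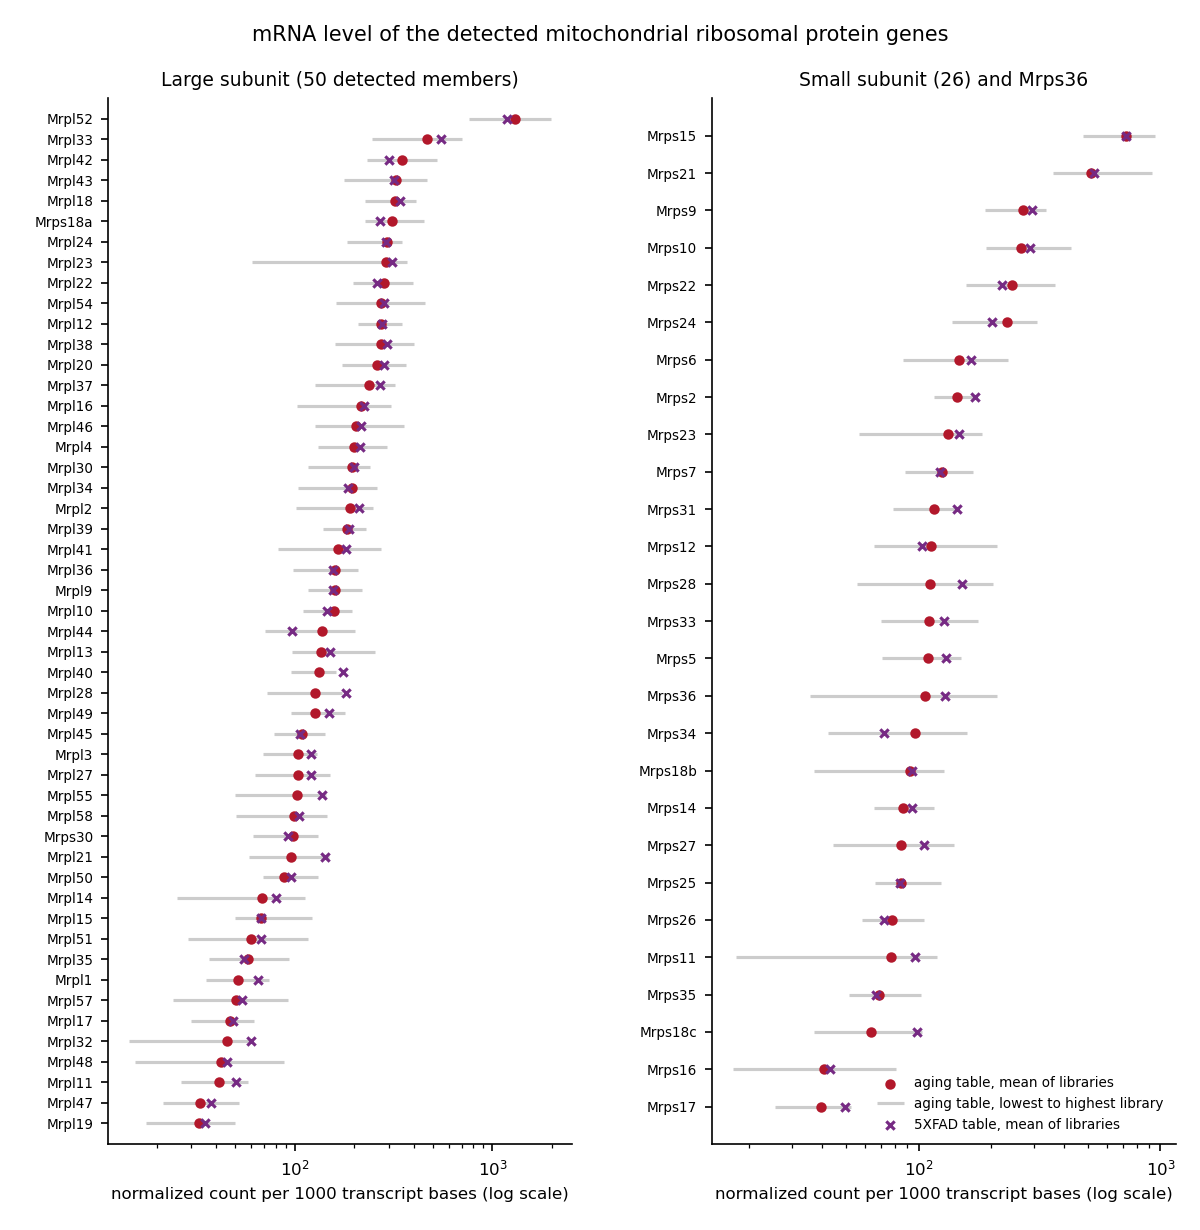
Normalized count per 1000 transcript bases of each of 77 members, by subunit. Circles are means over the 12 aging libraries, crosses are means over the 9 libraries of the 5XFAD set, and grey lines span the lowest to the highest aging library; Mrpl52 has the highest mean (1301) and Mrpl19 the lowest (32.7) in the aging set.

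Summed over the 78 genes, the transcripts made up 0.118% to 0.141% of normalized counts in the aging set and 0.111% to 0.151% in the 5XFAD set. The sum was 16926, 17396 and 18282 in libraries labelled aged Trem1-/-, 19156, 15692 and 17594 in aged wild type, 18448, 17294 and 18600 in libraries labelled young Trem1-/- and 18007, 17760 and 17906 in young wild type libraries. The aged wild type libraries spread the most and enclosed the sums of the other aging groups. In the 5XFAD set the sum was 20116, 19219 and 20759 in 5XFAD Trem1+/-, 20296, 18054 and 18804 in 5XFAD and 17215, 15669 and 18459 in adult wild type libraries. All 5XFAD Trem1+/- libraries lay above all adult wild type libraries, while 5XFAD overlapped with both. The adult wild type libraries also stood apart in mitochondrial rRNA, whose 2 genes summed to 30334 to 32857 in 5XFAD Trem1+/-, 23803 to 36885 in 5XFAD and 280179 to 327500 in adult wild type libraries. For this separation of sums, and for that of the subunit ratio given next, genotype and library make-up cannot be told apart. In bulk RNA, fewer cells of a type and less RNA per cell cannot be told apart. The ratio of large-subunit to small-subunit sums was 1.90 to 2.12 in 5XFAD and 1.73 to 1.89 in adult wild type libraries, which did not overlap, and 1.77 to 1.94 in 5XFAD Trem1+/- libraries. In the aging set it ran from 1.74 to 2.05 and all groups overlapped.

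**Figure D2:**
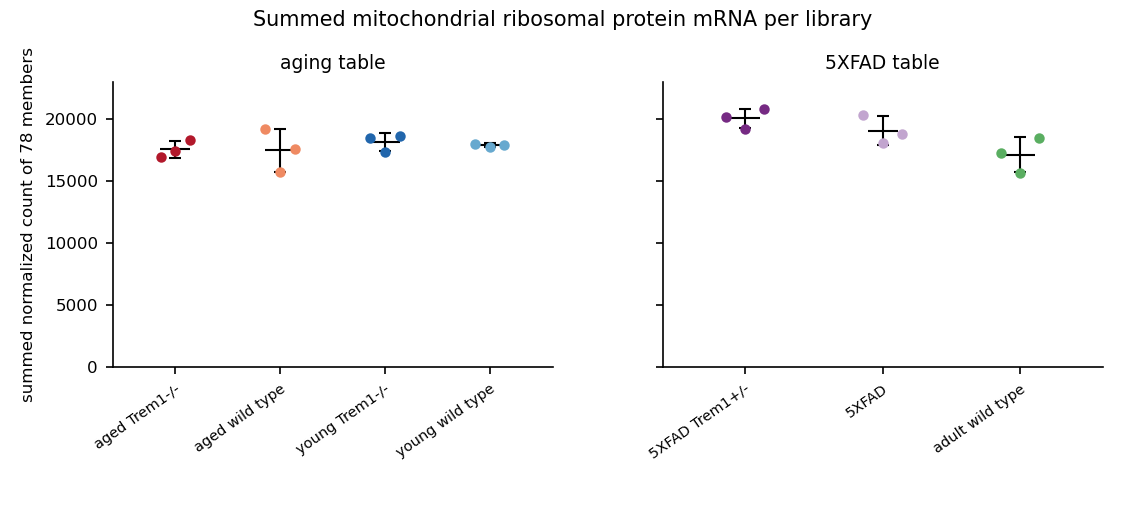
Summed normalized count of the 78 members in each library (points), with the mean and SD of 3 libraries per group. The 5XFAD Trem1+/- libraries all lie above the adult wild type libraries, and the aging groups overlap.

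Between aged and young wild type microglia, 1 member passed the threshold, Mrps22, which was lower in aged mice. The fit was limma on log2(normalized count + 1) over all genes of a table, and the threshold a Benjamini-Hochberg adjusted p under 0.05. Mrps22 (GRCm38 chr9:98588730-98601660, minus strand) encodes a small-subunit protein with no bacterial counterpart, and its loss in humans impairs mitochondrial translation. It had 241, 239 and 189 normalized counts in aged wild type and 293, 439.5 and 412 in young wild type libraries, without overlap. The difference was -0.76 ± 0.23 on the log2 scale (SE, n = 3 each, limma adjusted p = 0.0378). The call ended on removal of young wild type replicate 2, young wild type replicate 3, aged wild type replicate 1 or aged wild type replicate 3 (limma adjusted p 0.0628 to 0.170, differences -0.82 to -0.65). It also ended with no filter, with limma without trend and robust estimation and with only the groups compared (adjusted p = 0.119 with no filter). The same gene had 250.2, 194 and 230.1 in libraries labelled aged Trem1-/- and 337, 321 and 349 in libraries labelled young Trem1-/-, also without overlap, a difference that did not pass (-0.58 ± 0.23, limma adjusted p = 0.210).

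Over the 77 members, aged minus young wild type had a median of -0.04 on the log2 scale, against -0.01 for the 16086 genes tested, and 36 members were above 0. With 1 of 77 called, the members stood below the 8.67% of all genes called. The groups did not overlap for 15 members, 5 higher and 10 lower in aged wild type, which is 19.5% against 26.2% of all genes. The next smallest p-values belonged to Mrps28, Mrps30 and Mrps36. Mrps28, the counterpart of bacterial S1, had 64.4, 74.1 and 64.3 in aged wild type and 152, 159 and 96.1 in young wild type libraries (-0.96 ± 0.40, limma adjusted p = 0.150). Mrps30 had 284, 204 and 308 in aged wild type and 354, 338 and 433 in young wild type libraries (-0.51 ± 0.21, limma adjusted p = 0.156). Mrps36 had 143, 69.3 and 149 in aged wild type and 69.0, 64.5 and 27.1 in young wild type libraries (1.19 ± 0.51, limma adjusted p = 0.171). These 3 genes separated aged from young libraries, with Mrps28 and Mrps30 low and Mrps36 high in aged wild type, and none passed the threshold. Mrps36 did so narrowly, at 69.3 in aged wild type replicate 2 against 69.0 in young wild type replicate 1. The pseudogene Mrps36-ps1 had 15.6, 0.686 and 4.82 in aged wild type and 3.73, 29.5 and 41.9 in young wild type libraries, with overlap. Mrps36-ps2 had 9.99981, 21.9 and 0 in aged wild type and 1.87, 5.47 and 20.1 in young wild type libraries. Whether reads of Mrps36 were assigned to these pseudogenes was not tested, so its separation is uncertain. In the same comparison 12 of 12 neutrophil, 8 of 9 monocyte and 2 of 6 choroid plexus markers were called higher and 7 of 8 microglial markers lower, and their part in the fall of Mrps22 was not tested.

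**Figure D3:**
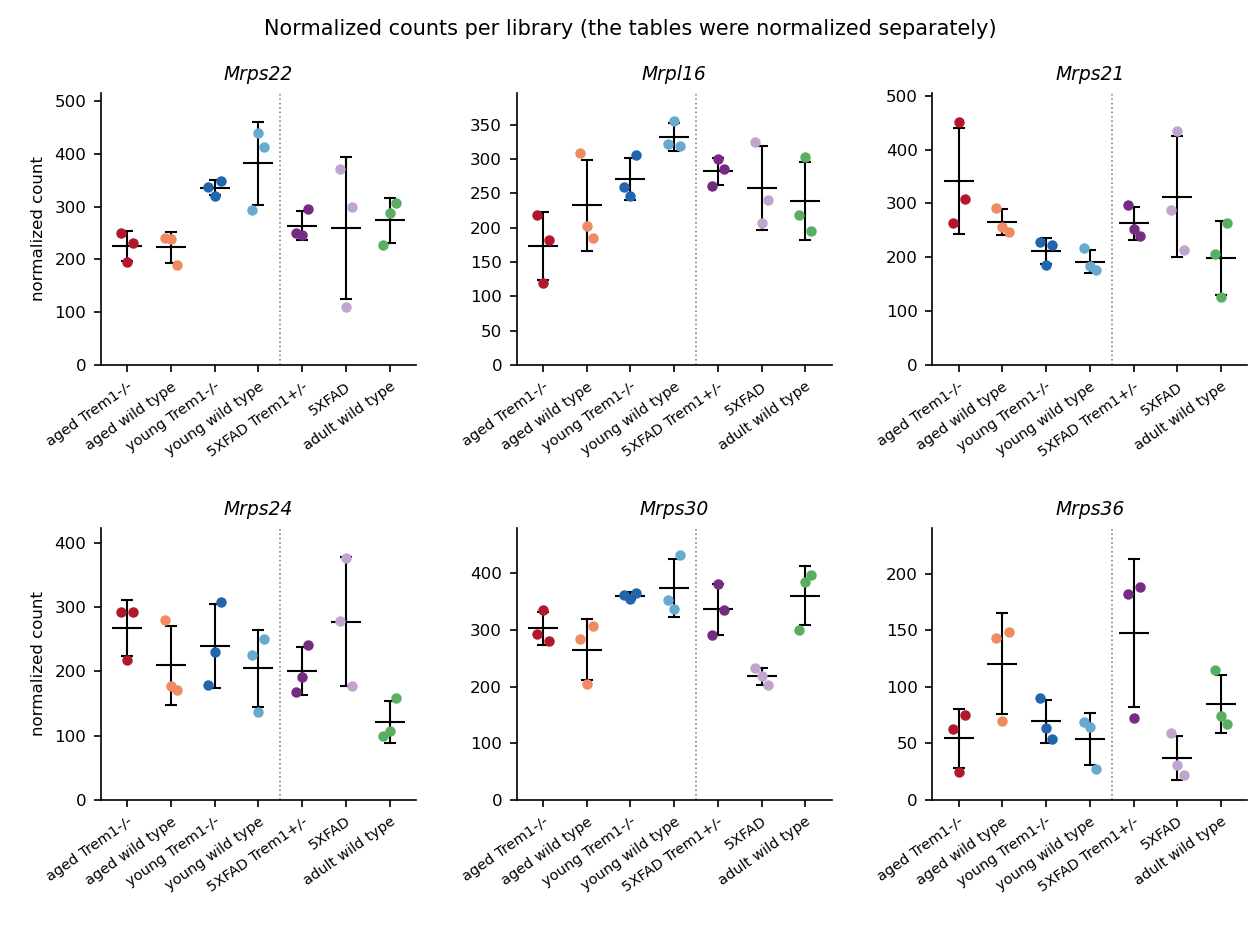
Normalized counts per library (points) of the 4 members past a threshold in limma, DESeq2 or the authors' deposited statistics (Mrps22, Mrpl16, Mrps21, Mrps24) and of Mrps30 and Mrps36, with the mean and SD of 3 libraries per group. The dotted line separates the aging set from the 5XFAD set; Mrps22 averages 223 in aged wild type and 382 in young wild type libraries.

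Aging was also compared between libraries labelled Trem1-/-. Limma, edgeR and DESeq2 each called 0 of 77 members, against 1.71% of all genes by limma, and 7 members had an unadjusted p under 0.05. Where a count at an unadjusted p has no number for all genes beside it, here and below, it is not a result about the members. The median was -0.02, against 0.00 for all genes, with 38 members above 0. The groups did not overlap for 14 members, 4 higher and 10 lower in aged libraries, or 18.2% against 21.2% of all genes. Mrpl44 had 180.2, 101 and 120.3 in aged Trem1-/- and 219, 209 and 229.6 in young Trem1-/- libraries (-0.75 ± 0.28, limma adjusted p = 0.189). Mrpl16, the counterpart of bacterial L16, had 218, 119 and 182 in aged Trem1-/- and 259.6, 247 and 305 in young Trem1-/- libraries (-0.68 ± 0.26, limma adjusted p = 0.207). Both were low in every aged library, as was Mrpl18, which averaged 313 in aged and 459.96 in young libraries labelled Trem1-/- (-0.57 ± 0.22, limma adjusted p = 0.200). Mrps21, the counterpart of bacterial S21, was high in every aged library, with 263, 452 and 308 in aged Trem1-/- and 228, 185 and 222 in young Trem1-/- libraries (0.65 ± 0.25, limma adjusted p = 0.189). In the same comparison 1 of 12 neutrophil and 1 of 6 choroid plexus markers were called higher and 2 of 8 microglial markers lower. Microglial sums were 282377 to 315283 in aged and 376642 to 390135 in young Trem1-/- libraries, without overlap. Choroid plexus sums were 31057 to 41007 and 2410 to 14884, also without overlap. Astrocyte and neuronal sums were higher in aged libraries without overlap, and sums of the other marker lists overlapped. The part of these markers in the values of the members was not tested.

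In their own statistics for the aging set, the authors compared libraries labelled aged Trem1-/- with young wild type libraries, so age and genotype label change together in them. The authors' deposited table gave an adjusted p under 0.05 to 3 of 77 members. The share of all genes under 0.05 in those statistics is not given here, so this count is not a result about the members. In the authors' deposited table log2 fold changes run young wild type over aged Trem1-/-, so a positive value means lower under the aged Trem1-/- label. Mrpl16 had 0.94 (SE 0.27, adjusted p = 0.0136) in the authors' deposited table, Mrps22 had 0.76 (SE 0.23, adjusted p = 0.0154) and Mrps21 had -0.83 (SE 0.25, adjusted p = 0.0168). Mrpl16 (GRCm38 chr19:11770391-11774960, plus strand) had 218, 119 and 182 in aged Trem1-/- and 323, 355 and 319 in young wild type libraries. Mrps21 (GRCm38 chr3:95862634-95871519, minus strand) had 263, 452 and 308 in aged Trem1-/- and 216, 184 and 176 in young wild type libraries. Both genes, like Mrps22, separated these groups without overlap. For this pair of groups the share of all genes without overlap is not given.

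The sequences around the starts of the members that passed a threshold are shown because NRF1, ETS factors such as GABPA, and YY1 are known to act near the starts of nuclear genes for mitochondrial proteins. Each window is from RefSeq (build GRCm38.p6) and runs from 250 bases before to 50 bases after the gene start given there. That start differs from the ends of the gene spans printed elsewhere, which are from GENCODE. For Mrps24 the window lies well inside the span chr11:5703983-5715680. Of the 78 members, 69 matched an entry. Capitals mark matches, on either strand, to NRF1 (GCGCA and GCGC with any 1 base between them), ETS (CCGGAAG) or YY1 (AANATGGCG), none of which overlap each other here. Mrps22 (chr9:98601630-98601929, minus strand) holds an ETS match that begins 11 bases before the start. Mrps21 (chr3:95871465-95871764, minus strand) holds an NRF1 match 91 bases before the start and an ETS match after it, both on the opposite strand. Mrpl16 (chr19:11770165-11770464, plus strand) holds none of the letters searched, and Mrps24 (chr11:5707652-5707951, minus strand), described with the 5XFAD set, holds a YY1 match after the start.
Mrps22: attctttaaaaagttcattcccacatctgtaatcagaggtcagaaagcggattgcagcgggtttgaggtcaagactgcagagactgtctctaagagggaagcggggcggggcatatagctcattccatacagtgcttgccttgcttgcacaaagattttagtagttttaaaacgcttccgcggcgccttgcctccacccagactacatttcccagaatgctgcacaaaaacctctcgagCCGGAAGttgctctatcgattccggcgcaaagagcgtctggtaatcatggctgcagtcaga
Mrps21: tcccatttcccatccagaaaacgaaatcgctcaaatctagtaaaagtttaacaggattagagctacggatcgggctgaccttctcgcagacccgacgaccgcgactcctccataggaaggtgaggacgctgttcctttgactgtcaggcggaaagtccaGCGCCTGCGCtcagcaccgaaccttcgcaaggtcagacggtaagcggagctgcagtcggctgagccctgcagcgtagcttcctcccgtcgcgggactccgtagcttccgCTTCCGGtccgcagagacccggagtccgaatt
Mrpl16: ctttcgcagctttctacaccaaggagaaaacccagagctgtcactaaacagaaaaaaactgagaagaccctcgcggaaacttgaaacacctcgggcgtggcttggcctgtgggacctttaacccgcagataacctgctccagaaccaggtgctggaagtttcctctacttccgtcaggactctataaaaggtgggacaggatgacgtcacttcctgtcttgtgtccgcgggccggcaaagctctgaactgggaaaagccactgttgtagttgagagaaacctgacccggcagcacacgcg
Mrps24: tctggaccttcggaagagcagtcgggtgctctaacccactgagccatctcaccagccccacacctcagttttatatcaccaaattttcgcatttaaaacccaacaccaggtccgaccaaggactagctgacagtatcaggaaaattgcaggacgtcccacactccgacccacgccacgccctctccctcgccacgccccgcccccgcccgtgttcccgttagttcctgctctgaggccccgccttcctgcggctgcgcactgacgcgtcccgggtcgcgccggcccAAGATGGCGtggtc
Among the 69 members, 13 held the NRF1 letters (18.8%, against 5.19% of 27025 genes), 26 the ETS letters (37.7%, against 9.93%) and 11 the YY1 letters (15.9%, against 2.76%). At least 1 of the 3 stood in 42 members (60.9%) and in 15.9% of all genes. A match describes letters and not binding.

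The Trem1-/- label was compared with wild type at each age. In young mice limma, edgeR and DESeq2 each called 0 of 77 members, against 2.58% of all genes by limma, and 1 had an unadjusted p under 0.05. That gene, Mrpl55 of the large subunit, had 114, 135 and 117 in young Trem1-/- and 67.2, 47.0 and 89.1 in young wild type libraries (0.88 ± 0.37, limma adjusted p = 0.297). Its libraries did not overlap. Mrps33, Mrps35 and Mrps28 came next, at -0.66, -0.44 and -0.69 on the log2 scale, with limma adjusted p-values of 0.525 to 0.555. The median was 0.04, against -0.01 for all genes, and 6 members did not overlap (7.79%, against 20.4% of all genes). In the same comparison 4 of 12 neutrophil and 5 of 9 monocyte markers were called higher under the Trem1-/- label. Of 8 microglial markers P2ry12 was called lower (-0.36 ± 0.09, limma adjusted p = 0.0202), and their sum was 376642 to 390135 in young Trem1-/- and 392586 to 445201 in young wild type libraries, without overlap. The part of these markers in the members' values was not tested.

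In aged mice the 3 tools again called 0 of 77 members, and 6 had an unadjusted p under 0.05. Limma called 0% of all genes, with 1545 at an unadjusted p under 0.05, while edgeR called 0 and DESeq2 30 genes. The median was -0.03, against -0.02 for all genes. Mrpl24, near the peptide exit, had 407, 467 and 439 in aged Trem1-/- and 299, 346 and 246 in aged wild type libraries (0.57 ± 0.19, limma adjusted p = 0.379). Mrpl41 had 113, 63.5 and 69.2 in aged Trem1-/- and 211, 145 and 113 in aged wild type libraries (-0.93 ± 0.35, limma adjusted p = 0.416). Mrpl24 was high and Mrpl41 low in every library with the label. Mrps11, the counterpart of bacterial S11, differed by -1.19 ± 0.51 without overlap, and Mrps23 by -0.77 ± 0.33 with overlap, at limma adjusted p-values of 0.443 and 0.445. Groups did not overlap for 8 members, 4 each way, or 10.4% against 12.2% of all genes.

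Whether aging differed between the genotype labels was tested as an interaction. Limma, edgeR and DESeq2 each called 0 of 77 members, against 2.54% of all genes by limma, and 1 had an unadjusted p under 0.05. The median of aging in Trem1-/- minus aging in wild type was -0.05 on the log2 scale, against -0.02 for all genes. The smallest p belonged to Mrps36 (-1.64 ± 0.73, limma adjusted p = 0.269), which had 62.6, 24.9 and 75.2 in aged Trem1-/- and 90.2, 63.9 and 53.7 in young Trem1-/- libraries. Mrpl55 (-1.07 ± 0.52), Mrpl10 (-0.66 ± 0.34) and Mrps10 (0.69 ± 0.37) followed, with limma adjusted p-values of 0.329 to 0.395. The pseudogene Mrps36-ps1 had 11.2, 21.2 and 70.7 in aged Trem1-/- and 27.2, 23.2 and 13.7 in young Trem1-/- libraries. Mrps36-ps2 had 12.1, 0 and 7.52 in aged Trem1-/- and 8.51, 15.5 and 10.5 in young Trem1-/- libraries. The wild type values of both pseudogenes, the other side of the interaction, are given with aged against young wild type. The part of these pseudogenes in the values of Mrps36 was not tested.

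In the 5XFAD set the rRNAs of the mitochondrial ribosome separated the adult wild type libraries from the rest. The 12S rRNA mt-Rnr1 had 4595, 3883 and 6476 normalized counts in 5XFAD Trem1+/-, 2615, 10530.5 and 2526 in 5XFAD and 82302, 90752 and 74847 in adult wild type libraries. The 16S rRNA mt-Rnr2 had 28262, 26451 and 23909 in 5XFAD Trem1+/-, 21188, 26354 and 23169 in 5XFAD and 210672, 236748 and 205332 in adult wild type libraries. All 3 adult wild type libraries stood far above the other 6. The 16S rRNA differed by -3.21 ± 0.10 on the log2 scale in 5XFAD (limma adjusted p = 6.12e-14) and by -3.05 ± 0.10 in 5XFAD Trem1+/- (limma adjusted p = 1.52e-13), both against adult wild type. The 12S rRNA differed by -4.32 ± 0.57 (limma adjusted p = 0.0228) and by -4.08 ± 0.57 (limma adjusted p = 0.0219). Its call ended in 5XFAD without any 1 library other than 5XFAD replicate 2 (limma adjusted p 0.0570 to 0.0964) and in 5XFAD Trem1+/- without any 1 of the 6 libraries (0.0566 to 0.0977). It also ended in 5XFAD with edgeR (adjusted p = 0.0546) and with only the groups compared (0.0951), and in 5XFAD Trem1+/- with limma without trend and robust estimation (0.0505). Gm23935 was high in the same libraries, with 12312, 12484 and 17682 in 5XFAD Trem1+/-, 10449, 30844 and 7655 in 5XFAD and 381396, 388221 and 470518 in adult wild type libraries. The labels give no RNA selection step. Since the 3 adult wild type libraries stand apart together, genotype and library make-up cannot be told apart in any comparison with them.

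The mRNAs of the mitochondrial genome went the other way. The 13 mRNAs summed to 134207, 105021 and 131160 in 5XFAD Trem1+/-, 107588, 119495 and 131927 in 5XFAD and 77512, 102047 and 69119 in adult wild type libraries, without overlap between either 5XFAD group and adult wild type. All 13 differences were above 0 in 5XFAD, with a median of 0.56, and in 5XFAD Trem1+/-, with a median of 0.63. In 5XFAD 2 of 13 passed, the complex I subunits mt-Nd1 (0.57 ± 0.12, limma adjusted p = 0.0152) and mt-Nd5 (0.65 ± 0.14, limma adjusted p = 0.0350). The mt-Nd1 call ended without adult wild type replicate 1 or 3 or 5XFAD replicate 3 (limma adjusted p 0.0543 to 0.0570), and the mt-Nd5 call without any 1 library other than adult wild type replicate 2 (0.0636 to 0.112). In 5XFAD Trem1+/- 4 of 13 passed, mt-Nd1, mt-Nd2, mt-Nd5 and mt-Nd6. Of these mt-Nd1 (0.89 ± 0.12, limma adjusted p = 0.000218) passed whichever library was left out, while mt-Nd2 lost its call without adult wild type replicate 1 or 5XFAD Trem1+/- replicate 1 or 3, and mt-Nd5 and mt-Nd6 without those or adult wild type replicate 3. Limma without trend and robust estimation ended all 6 of these calls (adjusted p 0.125 to 0.286). The mt-Nd5 calls also ended with no filter (adjusted p = 0.283 in 5XFAD and 0.282 in 5XFAD Trem1+/-), and in 5XFAD Trem1+/- with only the groups compared (0.0639). The mt-Nd6 call also ended with edgeR (adjusted p = 0.0547) and with only the groups compared (0.0625).

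**Figure D4:**
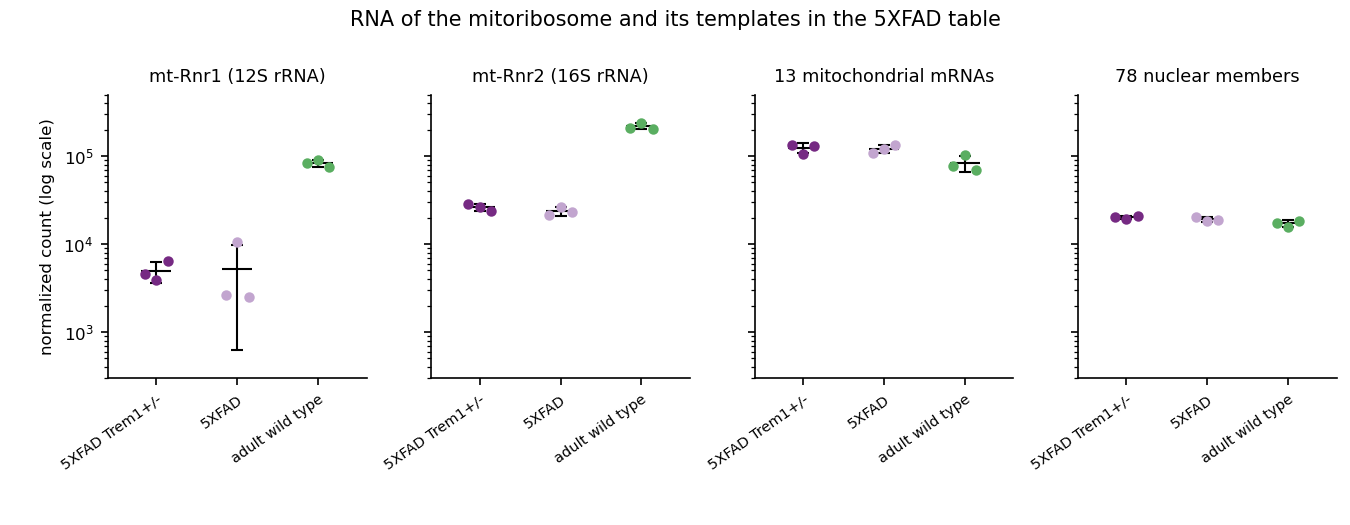
Normalized counts (log scale) in the 9 libraries of the 5XFAD set for the 12S rRNA, the 16S rRNA, the sum of the 13 mitochondrial mRNAs and the sum of the 78 nuclear members, with the mean and SD of 3 libraries per group. Both rRNAs are lower in the 5XFAD groups than in adult wild type, by 8.30 to 16.6 times between means, while the sums of members run from 15669 to 20759.

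Of the nuclear members, none passed by limma in 5XFAD against adult wild type. Limma and edgeR called 0 of 77, against 1.98% of all genes by limma, DESeq2 called 1, and 8 had an unadjusted p under 0.05. The 8 have no share of all genes beside them and are not a result about the members. The median was 0.19 on the log2 scale, against 0.00 for the 17025 genes tested, and 51 of 77 were above 0. It was 0.23 over 50 large-subunit genes, with 37 above 0, and 0.02 over 26 small-subunit genes, with 14 above 0. A library's median member deviation varied between replicates with an SD of 0.135 on the log2 scale in the 5XFAD set. Members share libraries, so counts of members above 0 are not counts of independent results, here and for 5XFAD Trem1+/- below. Mrps24 (GRCm38 chr11:5703983-5715680, minus strand), the counterpart of bacterial S3, was the gene DESeq2 called. It had 278, 377 and 177 in 5XFAD and 99.0, 107 and 159 in adult wild type libraries, without overlap (1.15 ± 0.35, limma adjusted p = 0.108, DESeq2 adjusted p = 0.0430). In the authors' deposited table Mrps24 was the only member of 77 under 0.05, at -1.18 (SE 0.36, adjusted p = 0.0319) for adult wild type over 5XFAD. The share of all genes under 0.05 there is not given. Of its 1466 exon bases, 226 are shared with Urgcp on the same strand.

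Mrpl57, a large-subunit protein with no bacterial counterpart, had 302, 141 and 194 in 5XFAD and 117, 93.7 and 73.1 in adult wild type libraries (1.11 ± 0.39, limma adjusted p = 0.170). Mrpl54 had 238, 161 and 257 in 5XFAD and 109, 55.1 and 179 in adult wild type libraries (1.06 ± 0.41, limma adjusted p = 0.230). Mrps30 had 233, 218 and 203 in 5XFAD and 300.4, 386 and 397 in adult wild type libraries (-0.71 ± 0.25, limma adjusted p = 0.173). Mrpl57 was high and Mrps30 low in every 5XFAD library, while Mrpl54 overlapped. Groups did not overlap for 6 members, 4 higher and 2 lower in 5XFAD, or 7.79% against 17.3% of all genes. Markers of microglia and of other cells moved in the same comparison. The 8 microglial markers summed to 301809 to 341629 in 5XFAD and 377325 to 423257 in adult wild type libraries, without overlap. Cx3cr1 (-0.43 ± 0.08, limma adjusted p = 0.0136) and Siglech (-0.47 ± 0.09, limma adjusted p = 0.0152) were called lower and Fcrls (0.65 ± 0.13, limma adjusted p = 0.0152) higher. The 6 choroid plexus markers summed to 15088 to 82013 in 5XFAD and 2328 to 6606 in adult wild type libraries, with 1 called higher. The 5 astrocyte markers summed to 2018 to 3752 in 5XFAD and 227 to 872 in adult wild type libraries, with 2 called higher. Of 6 endothelial markers, 1 was at 0 in all 5XFAD libraries and Pltp was called higher (2.51 ± 0.57, limma adjusted p = 0.0399). The endothelial sums overlapped, at 993 to 2644 in 5XFAD and 853 to 1329 in adult wild type libraries. The 6 neuronal markers summed to 205 to 549 in 5XFAD and 91.3 to 184 in adult wild type libraries, without overlap. The 12 neutrophil markers overlapped, at 11790 to 18459 in 5XFAD and 3528 to 46731 in adult wild type libraries. No marker of the other lists named here was at 0 in all libraries of a group. The part of all these markers in the members' values was not tested.

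The 5XFAD Trem1+/- libraries were set against both other groups. Against 5XFAD, limma, edgeR and DESeq2 each called 0 of 77 members, with 7 at an unadjusted p under 0.05. Limma called 0% of all genes, with 883 at an unadjusted p under 0.05, while edgeR called 0 and DESeq2 12 genes. The median was 0.11, against 0.02 for all genes, with 49 members above 0. The groups did not overlap for 14 members, 12 higher and 2 lower in 5XFAD Trem1+/-, or 18.2% against 11.9% of all genes. The 8 microglial markers summed to 359238 to 398919 in 5XFAD Trem1+/- and 301809 to 341629 in 5XFAD libraries, without overlap. The 6 neuronal markers were lower, at 115 to 199 in 5XFAD Trem1+/- and 205 to 549 in 5XFAD libraries, also without overlap. Sums of the other marker lists overlapped, and the part of markers in the members' values was not tested. Mrps36 had 182, 72.5 and 189 in 5XFAD Trem1+/- and 59.3, 30.5 and 22.1 in 5XFAD libraries (1.95 ± 0.55, limma adjusted p = 0.792). Mrps33, a small-subunit protein with no bacterial counterpart, had 177, 215 and 209 in 5XFAD Trem1+/- and 149, 53.8 and 54.7 in 5XFAD libraries (1.38 ± 0.43, limma adjusted p = 0.863). Both were high in every 5XFAD Trem1+/- library. The pseudogene Mrps36-ps1 ran the other way, with 3.14, 34.6 and 3.83 in 5XFAD Trem1+/- and 10.9, 66.9 and 29.4 in 5XFAD libraries, with overlap. Mrps36-ps2 had 1.05, 6.59 and 1.91 in 5XFAD Trem1+/- and 6.38, 30.5 and 22.1 in 5XFAD libraries. Whether reads of Mrps36 were assigned to these pseudogenes was not tested, so its separation is uncertain. Mrps30 had 292, 381 and 336 in 5XFAD Trem1+/- and 233, 218 and 203 in 5XFAD libraries (0.61 ± 0.25, limma adjusted p = 0.931), and Mrpl28, the counterpart of bacterial L28, averaged 134 in 5XFAD Trem1+/- and 273 in 5XFAD libraries, with overlap (-0.97 ± 0.38, limma adjusted p = 0.931).

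Against adult wild type, which the comparison of 5XFAD shares as its control, limma, edgeR and DESeq2 each called 0 of 77 members, against 2.78% of all genes by limma, and 3 had an unadjusted p under 0.05. The median in 5XFAD Trem1+/- was 0.26, against 0.02 for all genes, and 65 of 77 members were above 0. It was 0.28 over large-subunit genes, with 43 of 50 above 0, and 0.18 over small-subunit genes, with 21 of 26 above 0. The SD of 0.135 between replicates of a library's median applies here too, and the members share libraries. The groups did not overlap for 14 members, all higher in 5XFAD Trem1+/-, or 18.2% against 25.5% of all genes. Mrpl30, the counterpart of bacterial L30, had 321, 208 and 251 in 5XFAD Trem1+/- and 124, 161 and 106 in adult wild type libraries (0.99 ± 0.35, limma adjusted p = 0.155). Mrps12 had 117, 148 and 108 in 5XFAD Trem1+/- and 71.5, 44.5 and 46.0 in adult wild type libraries (1.21 ± 0.45, limma adjusted p = 0.169). Both separated the groups, as did Mrpl9 (0.81 ± 0.32, limma adjusted p = 0.194) and Mrps24 (0.73 ± 0.35, limma adjusted p = 0.318). In the same comparison 1 of 6 choroid plexus and 1 of 5 astrocyte markers were called higher, as were Fcrls of the microglial list (0.78 ± 0.13, limma adjusted p = 0.00361) and Pltp of the endothelial list (2.27 ± 0.57, limma adjusted p = 0.0491). The endothelial sums overlapped, at 1076 to 2558 in 5XFAD Trem1+/- and 853 to 1329 in adult wild type libraries. Choroid plexus sums did not, at 18342 to 103528 in 5XFAD Trem1+/- and 2328 to 6606 in adult wild type libraries. Neither did astrocyte sums, at 1620 to 2777 and 227 to 872, nor oligodendrocyte sums, at 1609 to 1809 and 1441 to 1544. Sums of the microglial, neutrophil, monocyte, neuronal and erythrocyte markers overlapped. The part of all these markers in the values of the members was not tested.

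Cytosolic ribosomal proteins and nuclear complex I subunits, picked by symbol after the files were seen, give the scale of these shifts. Cytosolic ribosomal proteins had a median of 0.81 in 5XFAD against adult wild type, with 21 of 78 called higher, and of 0.86 in 5XFAD Trem1+/- against adult wild type, with 29 of 78 called higher. The first count was 11, 6 and 6 without adult wild type replicate 1, adult wild type replicate 2 and 5XFAD replicate 1, and 37 without adult wild type replicate 3. The second was 17 and 7 without adult wild type replicate 1 and 2, and 16 and 4 without 5XFAD Trem1+/- replicate 2 and 3. Limma without trend and robust estimation called 0 in both. Nuclear complex I subunits had medians of 0.34 in 5XFAD and 0.38 in 5XFAD Trem1+/-, with 0 and 2 of 36 called. The medians of the mitochondrial ribosomal proteins, 0.19 and 0.26, lay below those of both sets. In libraries labelled aged against young Trem1-/- the cytosolic ribosomal proteins had a median of -0.29, and the mitochondrial ones -0.02. The differences between sets were not tested.

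**Figure D5:**
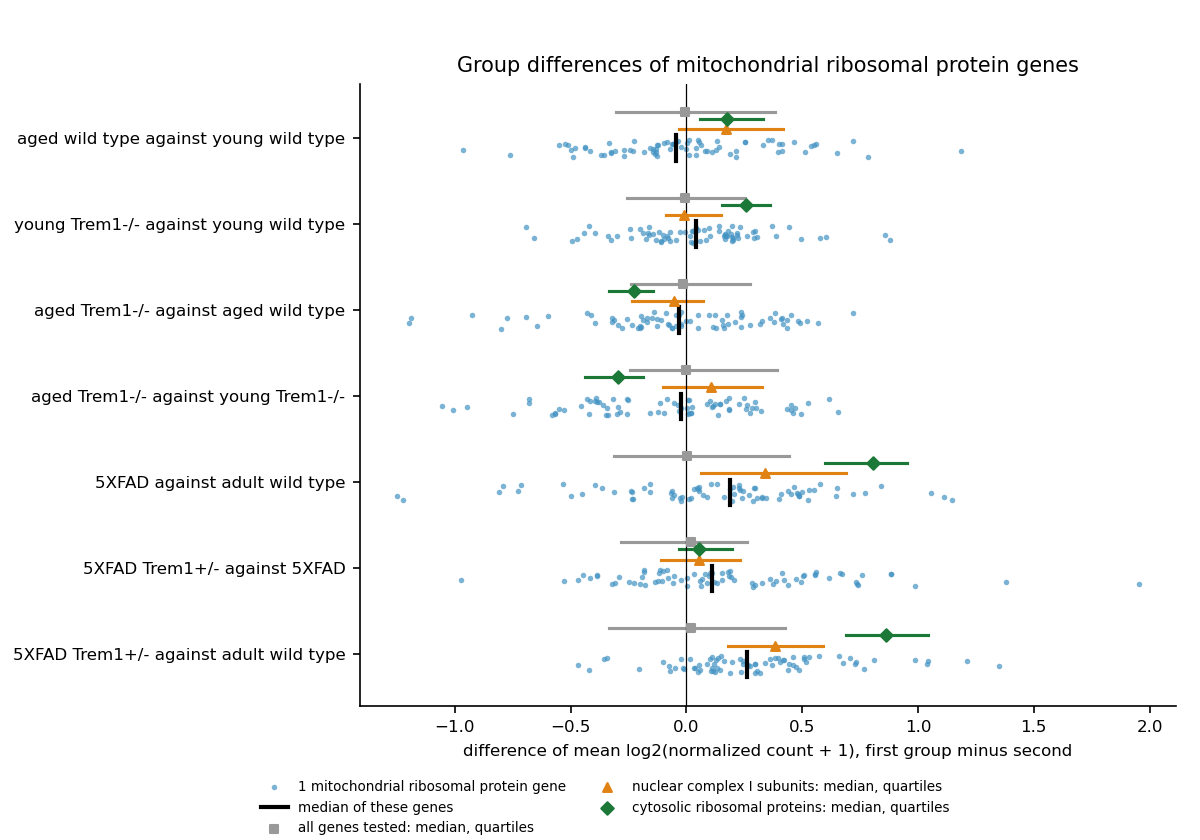
Difference of mean log2(normalized count + 1), first-named group minus second, for each of 77 members (points) in 7 comparisons, with the members' median (black bar) and the median and quartiles of all genes (square), nuclear complex I subunits (triangle) and cytosolic ribosomal proteins (diamond). Member medians lie between -0.04 and 0.26, and those of cytosolic ribosomal proteins reach 0.81 and 0.86 against adult wild type.

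A few genes that work with the mitochondrial ribosome passed the threshold. Of 5 ribosomal proteins without an Mrp symbol, Aurkaip1 of the small subunit was higher in 5XFAD, with 501, 952 and 546 in 5XFAD and 337, 239 and 289 in adult wild type libraries (1.16 ± 0.25, limma adjusted p = 0.0192). It had 614, 538 and 592 in 5XFAD Trem1+/- libraries, also higher than in adult wild type (1.02 ± 0.25, limma adjusted p = 0.0298). The first call ended without adult wild type replicate 2 or 5XFAD replicate 2 (limma adjusted p 0.0694 to 0.0947), and the second without any 1 library other than adult wild type replicate 1 (0.0619 to 0.145). Of 15 translation factors, Gfm2, which helps to split ribosomes for recycling, passed in 3 comparisons. It was lower in aged wild type, with 2178, 3334 and 2359.7 in aged wild type and 4002, 4148 and 3298 in young wild type libraries (-0.56 ± 0.14, limma adjusted p = 0.0138), a call that ended on removal of young wild type replicate 1, young wild type replicate 2, aged wild type replicate 1 or aged wild type replicate 3 (0.0585 to 0.0880). It had 3541, 4523 and 3774 in libraries labelled aged Trem1-/- and 2660.3, 3076 and 3051 in libraries labelled young Trem1-/-, and the interaction passed (0.98 ± 0.20, limma adjusted p = 0.00845). In the 5XFAD set it had 3034, 3382 and 2807 in 5XFAD Trem1+/-, 3489.8, 4895 and 3711 in 5XFAD and 4927, 5110.1 and 4859 in adult wild type libraries. It was lower in 5XFAD Trem1+/- than in adult wild type (-0.70 ± 0.13, limma adjusted p = 0.00665, and 0.0552 without 5XFAD Trem1+/- replicate 3). Limma without trend and robust estimation ended both calls of Aurkaip1 and all 3 of Gfm2 (adjusted p 0.138 to 0.198).

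Of 20 mitochondrial aminoacyl-tRNA synthetases, Lars2, which charges leucine tRNA, was lower in 5XFAD Trem1+/-, with 316, 363 and 449.8 in 5XFAD Trem1+/- and 551, 871 and 772 in adult wild type libraries (-0.95 ± 0.24, limma adjusted p = 0.0425). That call ended without any 1 library other than adult wild type replicate 1 (limma adjusted p 0.0842 to 0.214), with edgeR (adjusted p = 0.0546) and with limma without trend and robust estimation (0.210). Limma called 0 of 24 genes for ribosome assembly and rRNA modification, and 0 of 14 regulators of mitochondrial transcription and biogenesis, in each of the 8 comparisons, with at most 3 genes of a list at an unadjusted p under 0.05.

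The spread between replicates exceeded counting error for all 77 members in both sets. A member had a median of 213 reads per library in the aging set and 231 in the 5XFAD set. The median SD within groups on the log2 scale was 0.342 in the aging set and 0.409 in the 5XFAD set, 3.31 and 3.87 times the SD from counting alone. Mrpl24 was the steadiest in the aging set, with an SD of 0.162, and Mrps5 in the 5XFAD set, with 0.138. The least steady were Mrps11 in the aging set, with 0.689, and Mrpl14 in the 5XFAD set, with 1.16. The 95% interval of the difference lay within a 2-fold change either way for 50 of 77 members in aged against young wild type, 57 in young Trem1-/- against young wild type, 52 in aged Trem1-/- against aged wild type and 43 in aged against young Trem1-/-. It did so for 41 in 5XFAD against adult wild type, 36 in 5XFAD Trem1+/- against 5XFAD and 37 in 5XFAD Trem1+/- against adult wild type. For the other members a 2-fold change lies inside the interval.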

How the data were processed

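Reads were trimmed with fastp, aligned to GRCm38 with HISAT2 2.0.5, counted with featureCounts 1.5.0-p3 and analysed with DESeq2 1.20.0, per the submitters' processing notes. RNA came from an RNeasy kit and libraries from a NEBNext Ultra RNA kit, per the labels' protocols. The annotation release and strand setting are not given in the sources used here. The signal columns the authors deposited are counts divided by a size factor, and at least 99.9956% of values above 0 are whole reads within 0.05 of a read. The deposited log2 fold changes, Wald scores and p-values are the authors' own.

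Genes with a mean of at least 10 went into limma 3.58.1 under R 4.3.3, with trended and robust variance estimates, on log2(value + 1), all groups of a table in 1 fit, without a replicate block, and adjusted over all genes. edgeR 4.0.16 and DESeq2 1.42.0 on recovered reads were alternatives, as were pseudocounts, filters, TMM scaling and leaving out each library. A self-test of the limma step was run on simulated counts, its outcome is not given here, and no result rests on it. Lengths and positions are from GENCODE M21 (GRCm38), using the longest principal transcript. A total of 3 reads, a floor for a value of 0, correspond to 2.06 to 4.51 normalized counts for aging and 2.26 to 4.36 for 5XFAD, for counting error only. Replicates differed by more than sampling noise (chi-square per degree of freedom 12.7 to 45.6). Named genes are the members past the threshold or, where fewer than 4 passed, the 4 with the smallest p, the 5 highest and lowest per length, and members with a listed role. Members and lists were chosen with earlier results of these data known.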

Additional observations from a re-analysis of the deposited data

Results flagged for a closer look

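The aging difference of Gfm2, a ribosome recycling factor, differed between the genotype labels by a test of the difference itself. Aging in Trem1-/- minus aging in wild type was 0.98 ± 0.20 on the log2 scale (limma adjusted p = 0.00845). The difference was 0.43 ± 0.14 in libraries labelled aged against young Trem1-/- (limma adjusted p = 0.128) and -0.56 ± 0.14 in aged against young wild type (limma adjusted p = 0.0138). Limma without trend and robust estimation ended the call (adjusted p = 0.176), and the cause was not tested. In the same interaction 2 of 12 neutrophil and 4 of 9 monocyte markers were called, all lower, and their part in the result was not tested.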

How the results depend on the processing

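Over 33 single-member results and 548 alternatives, 540 kept direction and side of the threshold, 7 lost the call (all Mrps22 in aged against young wild type), 1 gained it (Mrps24 with DESeq2) and 0 reversed. Mrps22 was the only call among these results and kept it in 9 of 16 alternatives. The other results were not called and were picked by their small p in these data, so the 540 is no measure of robustness. The count of members called in aged against young wild type was 0 with no filter (Mrps22 adjusted p = 0.119), 0 with limma without trend and robust estimation (0.0571) and 0 with only the groups compared (0.0593), and the cause was not tested. In 5XFAD against adult wild type DESeq2 called 1. Leaving out 1 library gave 0 to 1 members in aged against young wild type and 0 to 1 in aged against young Trem1-/- (Mrpl23 without aged Trem1-/- replicate 1). Medians of the members then ran -0.10 to 0.040 in aged against young wild type, 0.0086 to 0.078 in young Trem1-/- against young wild type, -0.067 to 0.069 in aged Trem1-/- against aged wild type, -0.093 to 0.023 in aged against young Trem1-/-, -0.090 to 0.043 for the interaction, 0.096 to 0.25 in 5XFAD and 0.16 to 0.34 in 5XFAD Trem1+/- against adult wild type, and 0.045 to 0.21 in 5XFAD Trem1+/- against 5XFAD. Mrpl23, called above, had 42.1 normalized counts in aged Trem1-/- replicate 3. Its pseudogene Mrpl23-ps1 had 147 in that library and 16.2 to 54.6 in the other aging libraries. Whether reads of Mrpl23 were assigned to the pseudogene was not tested. With the replicate block 1 member was called in aged against young wild type and 0 elsewhere. Replicate numbers did not pair samples (median r 0.0119 for aging and 0.0116 for 5XFAD). The block ended the mt-Nd5 calls in 5XFAD (adjusted p = 0.110) and 5XFAD Trem1+/- (0.103). The interaction has no fit of only the groups compared. Counts over all genes changed with the libraries and the method. Leaving out 1 library gave 731 to 1612 in aged against young wild type, 223 to 424 in young Trem1-/- against young wild type, 92 to 335 in aged against young Trem1-/-, 197 to 790 for the interaction, 134 to 343 in 5XFAD and 115 to 446 in 5XFAD Trem1+/- against adult wild type. The count moved by over 1.5 times in aged against young wild type without young wild type replicate 2 (860), aged wild type replicate 1 (781) and aged wild type replicate 3 (731). It did so in young Trem1-/- against young wild type without young wild type replicate 2 (234), young wild type replicate 3 (259), young Trem1-/- replicate 2 (223) and young Trem1-/- replicate 3 (226). It did so in aged against young Trem1-/- without young Trem1-/- replicate 2 (94), young Trem1-/- replicate 3 (94), aged Trem1-/- replicate 2 (92) and aged Trem1-/- replicate 3 (182). It did so for the interaction without young wild type replicate 2 (248), young Trem1-/- replicate 2 (251), young Trem1-/- replicate 3 (203), aged wild type replicate 1 (235), aged wild type replicate 2 (790), aged wild type replicate 3 (197), aged Trem1-/- replicate 2 (221) and aged Trem1-/- replicate 3 (251). It did so in 5XFAD without adult wild type replicate 2 (137), 5XFAD replicate 1 (134) and 5XFAD replicate 2 (216). It did so in 5XFAD Trem1+/- against adult wild type without adult wild type replicate 2 (164), 5XFAD Trem1+/- replicate 2 (275) and 5XFAD Trem1+/- replicate 3 (115). It was 0 to 15 in aged Trem1-/- against aged wild type and 0 to 2 in 5XFAD Trem1+/- against 5XFAD. Limma without trend and robust estimation called 581 genes, against 1394, in aged against young wild type, 97, against 415, in young Trem1-/- against young wild type, 12, against 275, in aged against young Trem1-/-, 5, against 408, for the interaction, 32, against 337, in 5XFAD and 27, against 473, in 5XFAD Trem1+/- against adult wild type. DESeq2 called 648, 605, 769, 778 and 1061 in the last 5 of these. With no filter 795 and 952 were called in the last pair, with the replicate block 628 and 848, and edgeR called 213 in 5XFAD. The median SD of the members between replicates was 3.31 times that from counting alone for aging and 3.87 times for 5XFAD.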
